A study of Homo sapiens with 22 samples.

Results

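The class I lysine deacetylases are encoded by HDAC1, HDAC2, HDAC3 and HDAC8, and these 4 genes were followed through RNA sequencing of HT1080 cells, a human fibrosarcoma line. They were taken by gene symbol from a table of 60675 genes, and all 4 passed the filter on low counts in every comparison. The study asked how gene expression changes when a catalytic domain of KDAC6 or KDAC8, the proteins of HDAC6 and HDAC8, is inactivated, or when the enzyme is inhibited. The 22 libraries formed 6 groups. WT cells were unedited and untreated (n = 4). KDAC6H216A (n = 4) carried a histidine-to-alanine change in the first catalytic domain of KDAC6 and pooled 3 independently derived lines. KDAC6H611A (n = 4) carried the like change in the other catalytic domain. KDAC8H143A (n = 4) carried it in the single domain of KDAC8, and also had 1 unintended base inserted in a neighbouring HDAC8 intron. The edited lines were derived from single colonies, and the edited genes lie on the X chromosome. The remaining libraries came from WT cells kept for 2 days in 1 µM Tubastatin A (n = 3), an inhibitor of KDAC6, or in 5 µM PCI-34051 (n = 3), an inhibitor of KDAC8. No group is labelled as a vehicle control, so the treated cells were set against the untreated WT libraries, which all 5 comparisons with WT share.

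Class I deacetylases remove acetyl groups from lysines with a zinc ion held in the active site. HDAC1 and HDAC2 are close paralogs that work inside multiprotein co-repressors (Sin3, NuRD, CoREST and MiDAC), which deacetylate histones at promoters. HDAC3 is the catalytic subunit of the NCoR and SMRT co-repressor complex. HDAC8 works without such a complex and is best known for deacetylating SMC3, a core subunit of cohesin, the ring that holds sister chromatids together.

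The residue changed in KDAC8H143A has a counterpart in each member, and the coding sequence around that histidine is printed because it is the site the edit removes and shows how alike the genes are there. The capitals mark the histidine codon, with 30 coding bases on either side from the GENCODE release 44 canonical transcript on GRCh38.
HDAC1: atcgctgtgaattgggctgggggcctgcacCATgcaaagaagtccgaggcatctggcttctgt
HDAC2: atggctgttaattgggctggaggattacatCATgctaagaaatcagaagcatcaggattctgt
HDAC3: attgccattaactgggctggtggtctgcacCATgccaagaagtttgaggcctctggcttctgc
HDAC8: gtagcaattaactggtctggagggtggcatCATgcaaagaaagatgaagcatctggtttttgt
The codon is number 141 in HDAC1 (chr1:32327004-32327006, plus strand, exon 5 of 14), number 142 in HDAC2 (chr6:113956084-113956086, minus strand, exon 5 of 14) and number 135 in HDAC3 (chr5:141629875-141629877, minus strand, exon 5 of 15). In HDAC8 it is the codon that names KDAC8H143A, at chrX:72567897-72567899 on the minus strand, in exon 4 of 11 and 8 bases before the end of that exon. Of the 63 bases shown, HDAC8 shared 44 with HDAC1, 47 with HDAC2 and 45 with HDAC3. HDAC1 shared 50 with HDAC2 and 51 with HDAC3. A change of this kind leaves the transcript in place, so a count per gene cannot show whether a library carries it.

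The deposited values were expected counts, that is, reads assigned to a gene by a model that can split a read between genes. Totals per library ran from 5248953 to 29862665, and the inhibitor libraries were the deepest. A member had between 62 counts (HDAC8, WT replicate 1) and 4150 counts (HDAC2, Tubastatin A replicate 1). The mitochondrial rRNA genes took 20.8% to 23.9% of the counts in WT cells, at most 0.0259% in KDAC8H143A and at most 0.00541% in the inhibitor libraries. Within the KDAC6 lines, KDAC6H216A replicate 1 (0.195%) and KDAC6H611A replicate 4 (0.173%) stood apart from their own groups, as did KDAC6H611A replicate 2 with 38.0%. With those genes and small RNAs removed, all calls on the 4 members in all 8 comparisons stayed on the same side of the threshold. Removing genes after sequencing does not undo other differences in library make-up. In KDAC8H143A and the inhibitor libraries the low mitochondrial rRNA share went with the group, so library make-up and condition cannot be told apart there. Of 5 mesenchymal markers, 4 or 5 reached a mean of 1 CPM in each group, and 3 of 5 epithelial markers did so too, with a summed level of 234 to 287 CPM in WT and 365 to 477 CPM in KDAC8H143A (210 to 477 over all groups). EPCAM, a defining epithelial marker, was at or under 3 counts in every library and CDH1, another, in every library outside PCI-34051. Of 5 leukocyte markers, 1 reached a mean of 1 CPM in each group but Tubastatin A, where none did, and PTPRC and CD3E were at or under 3 counts throughout. Of 5 endothelial markers, at most 1 did so, and their summed level was 1.38 to 4.91 CPM. The part of these markers in the results was not tested.

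HDAC2 moved most. Its level in CPM (counts scaled to a common library size, after TMM factors set over all 22 libraries) was 92.9, 105, 106 and 97.1 in the WT libraries, in the order of their replicate numbers. It was 31.5, 38.7, 35.2 and 37.3 CPM in KDAC8H143A. The groups were far apart, with the highest KDAC8H143A library below the lowest WT library. The share of all genes whose groups lie apart in this way is not given, here or for the members below. In bulk RNA, fewer cells with the transcript and less transcript per cell cannot be told apart. In KDAC6H611A, HDAC2 was at 74.8, 51.1, 73.8 and 71.8 CPM, which also lay below every WT library. In KDAC6H216A it was at 82.1, 108, 126 and 118 CPM, on both sides of WT. With Tubastatin A all 3 libraries were at 133 CPM, and with PCI-34051 they were at 122, 125 and 118 CPM. Both inhibitors thus stood on the other side of WT from the edited lines KDAC6H611A and KDAC8H143A. The group means were 100.4 ± 6.44 CPM in WT (SD, n = 4), 35.7 ± 3.11 in KDAC8H143A (SD, n = 4) and 67.9 ± 11.3 in KDAC6H611A (SD, n = 4).

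HDAC1, the paralog of HDAC2, moved less. It was at 73.6, 79.5, 79.6 and 73.5 CPM in WT and at 65.5, 63.5, 71.0 and 65.6 CPM in KDAC8H143A. The KDAC6H611A libraries had 68.8, 51.7, 73.4 and 73.1 CPM of HDAC1, the last 2 almost touching the WT range. KDAC6H216A spread widely, with 66.7, 93.2, 115 and 103 CPM, and its replicate 1 was the only library of that line below WT. Tubastatin A gave 93.4, 98.2 and 101 CPM and PCI-34051 gave 89.1, 108 and 90.8 CPM of HDAC1, and all 6 of these libraries were above all WT libraries.

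HDAC3, the NCoR and SMRT deacetylase, was at 27.9, 24.3, 27.3 and 27.2 CPM in WT. It was at 29.9, 31.6, 30.5 and 28.7 CPM in KDAC8H143A, at 31.8, 31.0 and 32.3 CPM with Tubastatin A and at 32.2, 32.5 and 33.5 CPM with PCI-34051. These 3 groups all lay above the WT range, by a small margin, and HDAC3 was called in none of them by the test given below. KDAC6H216A had 27.9, 29.1, 37.9 and 34.7 CPM of HDAC3. KDAC6H611A split into 21.5 and 21.8 CPM in replicates 1 and 2 and 32.3 and 31.1 CPM in replicates 3 and 4.

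HDAC8, the gene edited in KDAC8H143A and the target of PCI-34051, had the fewest counts of the 4 genes in every library. WT libraries had 12.8, 13.4, 13.3 and 11.6 CPM, and KDAC8H143A libraries had 12.0, 14.7, 12.1 and 11.4 CPM. The groups overlapped fully. HDAC8 was at 13.3, 12.8, 13.6 and 12.4 CPM in KDAC6H216A, at 11.7, 15.5, 12.4 and 10.4 CPM in KDAC6H611A, at 12.0, 13.5 and 13.6 CPM with Tubastatin A and at 14.5, 13.5 and 13.0 CPM with PCI-34051. Every group's range overlapped the WT range.

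**Figure D1:**
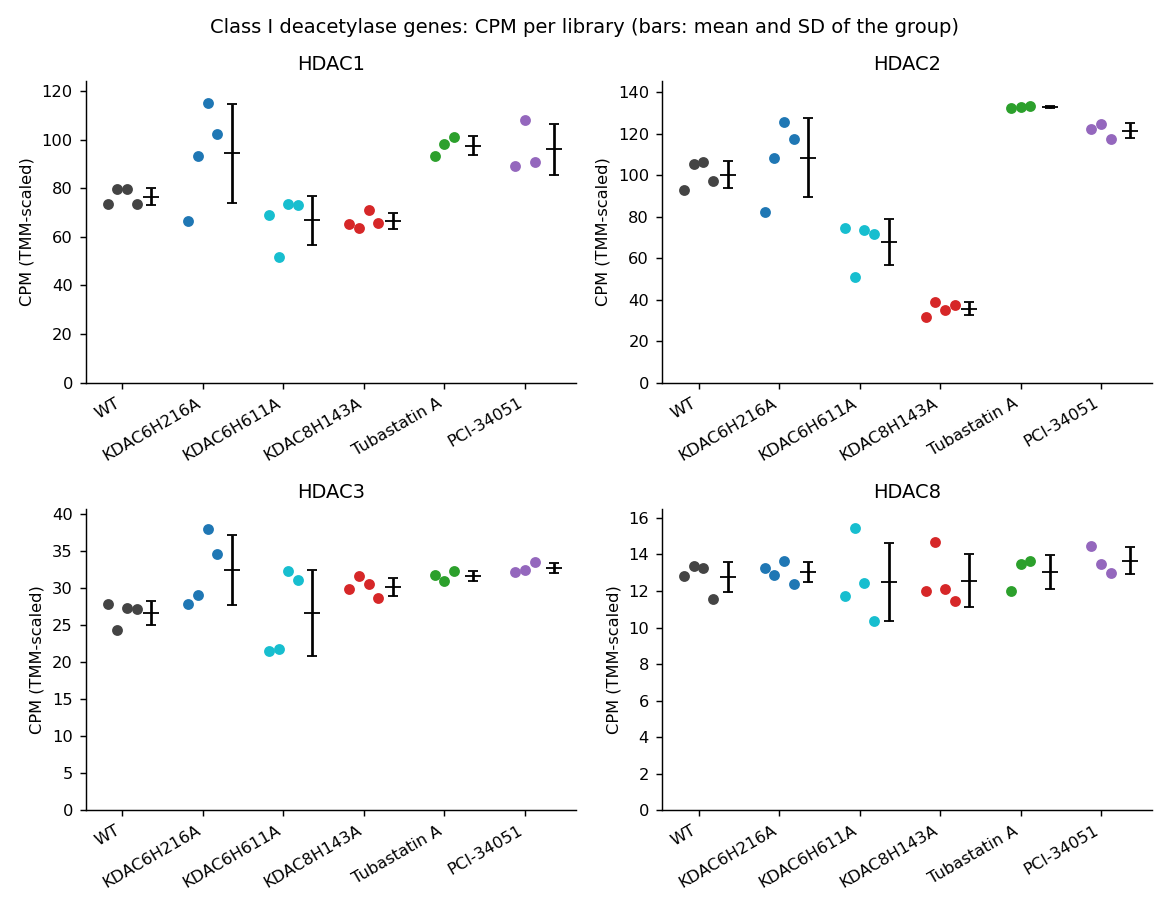
CPM of HDAC1, HDAC2, HDAC3 and HDAC8 (vertical axes, each from 0) in every library of the 6 groups (points), with the mean and SD of each group (bars). HDAC2 lies at 31.5 to 38.7 CPM in KDAC8H143A against 92.9 to 106 in WT, whereas HDAC8 lies between 10.4 and 15.5 CPM in all 22 libraries.

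Genes were compared with each other only per length, and the order depended on which length was used. Over the union of annotated exons, WT cells held HDAC1 at 19.3 ± 0.866, HDAC2 at 6.54 ± 0.420, HDAC3 at 5.79 ± 0.347 and HDAC8 at 0.557 ± 0.0357 CPM per kb (SD, n = 4 each). HDAC1 was highest and HDAC8 lowest, with no overlap between neighbours except HDAC2 and HDAC3, whose WT ranges overlapped. Over the canonical transcript, HDAC8 rose to 7.27 ± 0.465 and HDAC3, at 13.8 ± 0.827, passed HDAC2, at 10.3 ± 0.661 (CPM per kb, SD, n = 4 each). HDAC1 led in all 22 libraries with each of 3 length definitions (union of exons, longest transcript and canonical transcript). With the canonical length, HDAC2 was the lowest of the 4 genes in 4 of 4 KDAC8H143A libraries and in 1 of 4 KDAC6H611A libraries, and HDAC8 was the lowest in the other 17. The annotated transcript of HDAC2 is 9737 bases long and its union of exons 15333, against 1754 and 22888 bases for HDAC8, and in KDAC8H143A the order of the pair turned with the length. There HDAC2 was 4.24 times HDAC8 over the union of exons and 1.66 times over the longest transcript, while HDAC8 was 1.95 times HDAC2 over the canonical transcript. Outside KDAC8H143A, HDAC2 was above HDAC8 with all 3 lengths in every library but the 1 of KDAC6H611A.

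As a share of the 4 genes summed per length over the union of exons, HDAC2 made up 20.3% ± 0.681 in WT and 8.90% ± 0.804 in KDAC8H143A (SD, n = 4 each). HDAC3 took 18.0% ± 1.46 in WT and 25.0% ± 1.04 in KDAC8H143A (SD, n = 4 each). HDAC1 took 59.9% ± 0.862 in WT and 64.0% ± 1.72 in KDAC8H143A (SD, n = 4 each). These shares do not depend on how libraries are scaled to each other, but they were not corrected for GC content and gene length.

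The ratio of HDAC2 to HDAC1 counts within a library is likewise free of scaling between libraries and likewise not corrected for GC content and length. The genes differ in both: the longest transcript has 9737 bases and 37.8% GC in HDAC2, and 2409 bases and 47.5% GC in HDAC1. It was 1.26, 1.32, 1.33 and 1.32 in WT, and 0.482, 0.609, 0.496 and 0.568 in KDAC8H143A. KDAC6H611A gave ratios of 1.09, 0.987, 1.00 and 0.982, and KDAC6H216A gave 1.23, 1.16, 1.09 and 1.15. All 12 libraries of the edited lines were therefore below all 4 WT libraries in this ratio. How often other pairs of genes show this is not given. In KDAC6H216A neither gene of the ratio was called by the test given below, with HDAC2 at a log2 fold change of 0.02 and HDAC1 at 0.20. With Tubastatin A the ratio was 1.42, 1.35 and 1.32, and with PCI-34051 it was 1.37, 1.15 and 1.29, both overlapping WT. The ratio of HDAC3 to HDAC1 was 0.430 to 0.498 in KDAC8H143A and 0.306 to 0.379 in WT, also without overlap. The ratio of HDAC8 to HDAC1 was 0.157 to 0.174 in WT and 0.170 to 0.231 in KDAC8H143A, which overlapped, and KDAC6H611A replicate 2 had the highest ratio of any library, 0.299. Across the 22 libraries, which share groups and depth, the log2 CPM of HDAC1 and HDAC2 had a Pearson r of 0.79, and 0.87 with group means removed. HDAC8 and HDAC1 had an r of 0.06, and -0.35 with group means removed.

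**Figure D2:**
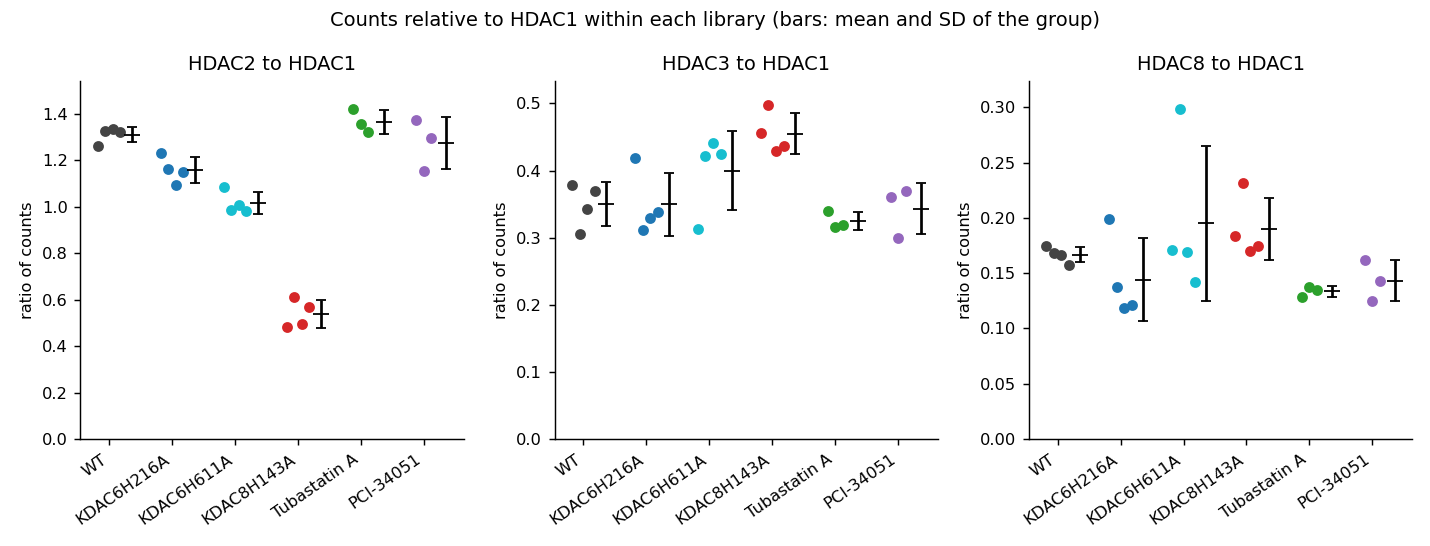
Ratio of the counts of HDAC2, HDAC3 and HDAC8 to those of HDAC1 (vertical axes, each from 0) within each library of the 6 groups (points), with the mean and SD of each group (bars). The HDAC2 ratio is 0.482 to 0.609 in KDAC8H143A and 1.26 to 1.33 in WT.

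HDAC2 fell in KDAC8H143A to a fitted log2 value of -1.44 relative to WT (SE 0.10, adjusted p = 6.00e-07), a level of 0.368 times WT. These and the following adjusted p-values come from edgeR's quasi-likelihood test in a fit of the 2 groups compared, with Benjamini-Hochberg adjustment over all genes tested and a threshold of 0.01. Each fit sets its own scaling, so a fold change need not equal the ratio of mean CPM. The edited gene itself, HDAC8, was at 0.03 on the log2 scale (95% interval -0.26 to 0.32, adjusted p = 0.847), HDAC1 at -0.16 (95% interval -0.34 to 0.03, adjusted p = 0.128) and HDAC3 at 0.23 (95% interval 0.01 to 0.45, adjusted p = 0.0558). So 1 of 4 members passed, where 58.5% of all 16101 genes tested passed, and 6.03% of them had a lower log2 fold change than HDAC2. The fall of HDAC2 passed the threshold in all 12 alternative settings and in 8 of 8 fits that left out a library. Its size did depend on a correction for GC content and gene length, which took the log2 fold change to -0.64 (adjusted p = 2.60e-04) and brought HDAC8 past the threshold at 0.66 (adjusted p = 2.44e-04). With the total count as the only scaling, which moved the median of all genes from 0.08 to 0.36, HDAC2 was at -1.15 and HDAC3 passed at 0.52 (adjusted p = 2.15e-03).

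The genes around HDAC2 on chromosome 6 were also lower in KDAC8H143A. HDAC2 lies on GRCh38 at chr6:113933028-114011308. Of 45 other tested genes that start within 5 Mb of it, 31 were lower than in WT and 1 was higher, with a median log2 fold change of -1.30, while the median of all genes tested was 0.08. LAMA4, a laminin chain gene and the nearest coding gene on the lower-coordinate side to pass the low-count filter, was at -1.58 (adjusted p = 2.78e-07). HS3ST5, a heparan sulfate sulfotransferase gene on the other side, had 5 to 13 counts in WT and 19 to 41 in KDAC8H143A, with a log2 fold change of 0.49 (adjusted p = 0.211). The lower level ran along most of the chromosome beyond 60 Mb. There 233 of 330 tested genes (HDAC2 left out) were lower and 14 higher, with a median log2 fold change of -1.19 and quartiles of -1.73 and -0.59, and 38.5% of them had a lower log2 fold change than HDAC2. Before 60 Mb, 102 of 430 tested genes were lower and 136 higher, with a median of 0.12. Each of the 12 bins of 10 Mb from 60 Mb on had a negative median, between -0.67 and -1.69.

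Genes near the other members did not share such a shift. The median log2 fold change in KDAC8H143A of tested genes within 5 Mb was 0.17 around HDAC1 (110 genes), 0.14 around HDAC3 (105 genes) and -0.22 around HDAC8 (39 genes). Of the comparisons with WT, the shift around HDAC2 was seen in KDAC8H143A and not in KDAC6H611A, where the median of 47 genes near HDAC2 was -0.10 and 2 were lower and 2 higher. The median around HDAC2 was -0.05 in KDAC6H216A (45 genes), 0.06 with Tubastatin A (49 genes) and 0.04 with PCI-34051 (48 genes). With the GC and length correction, the median around HDAC2 in KDAC8H143A was -0.68, close to the corrected HDAC2 value of -0.64. The part in the level of HDAC2 of this lower level beyond 60 Mb was not tested.

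**Figure D3:**
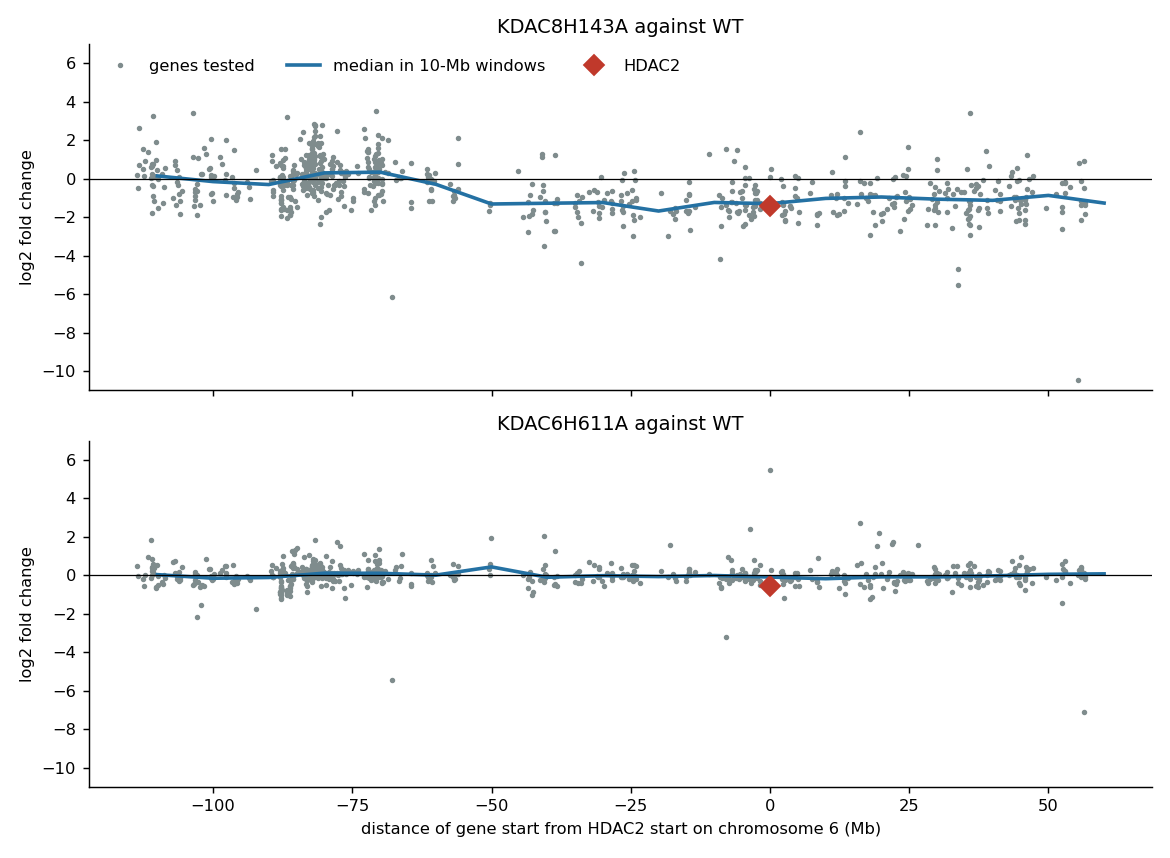
Log2 fold change against WT (vertical axes) of every tested gene of chromosome 6 by the distance in Mb of its start from that of HDAC2 (horizontal axis), in KDAC8H143A (top) and KDAC6H611A (bottom), with medians in 10-Mb windows (line) and HDAC2 as a diamond. In KDAC8H143A the line drops well to the left of HDAC2 and stays below 0 from there on, with HDAC2 at -1.44 close to it, while in KDAC6H611A HDAC2, at -0.54, lies below a line near 0.

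A lncRNA on the opposite strand, HDAC2-AS2, overlaps HDAC2 (chr6:113969701-114471705, plus strand). It had 8 to 15 counts in WT and 15 to 49 in KDAC8H143A, and its log2 fold change was 0.09 (adjusted p = 0.799). The authors report counting with default parameters and name no setting for strand, so reads from the overlap of HDAC2 and HDAC2-AS2 cannot be told apart. The counts of HDAC2-AS2 were small beside the 378 to 799 counts of HDAC2 in KDAC8H143A. HDAC1 has 2 processed pseudogenes, which can share its reads. HDAC1P2 (chr1:220625740-220628056) had 1 to 4 counts in WT and 17 to 25 in KDAC8H143A, a log2 fold change of 1.90 (adjusted p = 1.79e-03, and 0.0107 without WT replicate 3), and HDAC1P1 had 1 to 4 and 3 to 9 counts. The pseudogenes together held 0.474% to 1.24% of the reads of HDAC1 and its pseudogenes in WT and 1.94% to 4.15% in KDAC8H143A. Adding these reads to HDAC1, a setting chosen after the data were seen, changed its log2 fold change in KDAC8H143A to -0.13 (adjusted p = 0.211) and altered no call. The HDAC8 locus is overlapped by an annotated read-through gene, ENSG00000285547, which was not analysed here.

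HDAC2 fell less in KDAC6H611A, where its fitted value was -0.54 relative to WT on the log2 scale (SE 0.11, adjusted p = 3.40e-03), or 0.689 times WT. On the same scale HDAC1 was at -0.17 (adjusted p = 0.259), HDAC3 at 0.03 (adjusted p = 0.892) and HDAC8 at -0.01 (adjusted p = 0.976). Thus 1 of 4 members passed, where 12.3% of all 14725 genes tested did. Leaving out KDAC6H611A replicate 2, the library with 38.0% mitochondrial rRNA, gave -0.46 (adjusted p = 2.28e-04) for HDAC2, and leaving out replicate 4 gave -0.56 (adjusted p = 6.89e-03). The call was lost without WT replicate 2 (adjusted p = 0.0166), WT replicate 3 (0.0165) or WT replicate 4 (0.0111), with total count scaling (-0.51, adjusted p = 0.157) and with the GC and length correction (-0.40, adjusted p = 0.0253). The direct fit of the lines put HDAC2 lower in KDAC8H143A than in KDAC6H611A, at -0.89 on the log2 scale (SE 0.14, adjusted p = 2.43e-04). That was 1 of 4 members past the threshold against 45.2% of 16624 genes. This call was lost with total count scaling (-0.65, adjusted p = 0.0301) and with the GC and length correction (-0.25, adjusted p = 0.163). Of 48 other tested genes within 5 Mb of HDAC2, 32 were lower and 1 higher in the direct fit, with a median of -1.29.

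In KDAC6H216A against WT, no member passed the threshold in edgeR's test, none had an unadjusted p under 0.05 and DESeq2 called none, where edgeR's test called 0.834% of all 14500 genes. The log2 fold change was 0.20 for HDAC1 (95% interval -0.03 to 0.44), 0.02 for HDAC2 (-0.18 to 0.21), 0.19 for HDAC3 (-0.03 to 0.41) and -0.06 for HDAC8 (-0.30 to 0.19). Leaving out replicate 1, the library with 0.195% mitochondrial rRNA, raised HDAC1 to 0.30 (adjusted p = 8.44e-04) and left the others uncalled. HDAC6, the edited gene, was at 6.37 ± 0.749 CPM in KDAC6H216A and 14.2 ± 3.28 CPM in WT (SD, n = 4 each), a log2 fold change of -1.25 (adjusted p = 5.40e-03). This call was lost in 6 of 8 fits that left out a library, those without replicate 2, 3 or 4 of either group (-1.32 to -1.16, adjusted p = 0.0182 to 0.0316). In KDAC6H611A HDAC6 was at -0.10 on the log2 scale (adjusted p = 0.747).

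With Tubastatin A, HDAC2 rose by 0.29 on the log2 scale (SE 0.05, adjusted p = 2.74e-05) and HDAC1 rose by 0.23 (SE 0.05, adjusted p = 2.49e-04). HDAC3 was at 0.14 (95% interval -0.00 to 0.29, adjusted p = 0.0738) and HDAC8 at -0.08 (95% interval -0.29 to 0.12, adjusted p = 0.461). That is 2 of 4 members, where 57.9% of all 15246 genes passed. Both calls held in 7 of 7 fits that left out a library, but the rise of HDAC2 was lost with the GC and length correction (0.07, adjusted p = 0.201). In 1 fit of all 6 groups neither rise was called. HDAC3 stayed uncalled in 9 of 12 alternative settings and passed as a rise in the others, the GC and length correction among them.

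With PCI-34051, HDAC1 rose by 0.23 on the log2 scale (SE 0.06, adjusted p = 5.40e-03) and HDAC2 by 0.17 (SE 0.05, adjusted p = 5.72e-03). HDAC3 was at 0.20 (95% interval 0.05 to 0.35, adjusted p = 0.0205) and HDAC8 at -0.00 (95% interval -0.21 to 0.21, adjusted p = 0.988). Here 2 of 4 members passed, where 51.1% of all 15346 genes did. The rise of HDAC1 held in 4 of 7 fits that left out a library and was lost without PCI-34051 replicate 2 (0.14, adjusted p = 0.0430), WT replicate 2 (adjusted p = 0.0129) or WT replicate 4 (0.0229). The rise of HDAC2 held in 2 of 7, those without WT replicate 3 and without PCI-34051 replicate 3. With the GC and length correction HDAC2 was at -0.00 (adjusted p = 0.970). Neither rise was called in 1 fit of all 6 groups. HDAC3 stayed uncalled in 7 of 12 alternative settings and passed as a rise in the others, the GC and length correction among them.

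The inhibitors were given at different doses, 1 µM Tubastatin A and 5 µM PCI-34051, for the same 2 days, and the values beside each other do not compare the compounds at a matched dose. In the direct fit, no member passed in edgeR's test and DESeq2 called none, where edgeR called 5.65% of 18409 genes. HDAC2 had an unadjusted p under 0.05, with a log2 fold change of PCI-34051 against Tubastatin A of -0.11 (95% interval -0.21 to -0.02, adjusted p = 0.0917). The intervals were -0.14 to 0.12 for HDAC1, -0.05 to 0.17 for HDAC3 and -0.11 to 0.27 for HDAC8.

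KDAC8 was thus both mutated and targeted with an inhibitor in the study, and PCI-34051 was set directly against KDAC8H143A. HDAC2 was higher with PCI-34051 by 1.80 on the log2 scale (SE 0.11, adjusted p = 1.14e-06), and HDAC1 was higher by 0.57 (SE 0.11, adjusted p = 8.86e-04). Of 56 other tested genes within 5 Mb of HDAC2, 36 were higher and 1 lower, with a median of 1.46. HDAC3 was at 0.15 (95% interval -0.07 to 0.38) and HDAC8 at 0.15 (95% interval -0.16 to 0.46), and neither passed. That made 2 of 4 members, where 58.2% of 18540 genes passed. With the GC and length correction HDAC8 turned to -0.63 and was called (adjusted p = 4.28e-04). The call on HDAC1 was lost with upper-quartile scaling (0.36, adjusted p = 0.0114) and with protein-coding genes only (0.34, adjusted p = 0.0117). KDAC8H143A is 1 line grown from a single colony and the treated cells are not, and the edit and the line cannot be told apart.

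**Figure D4:**
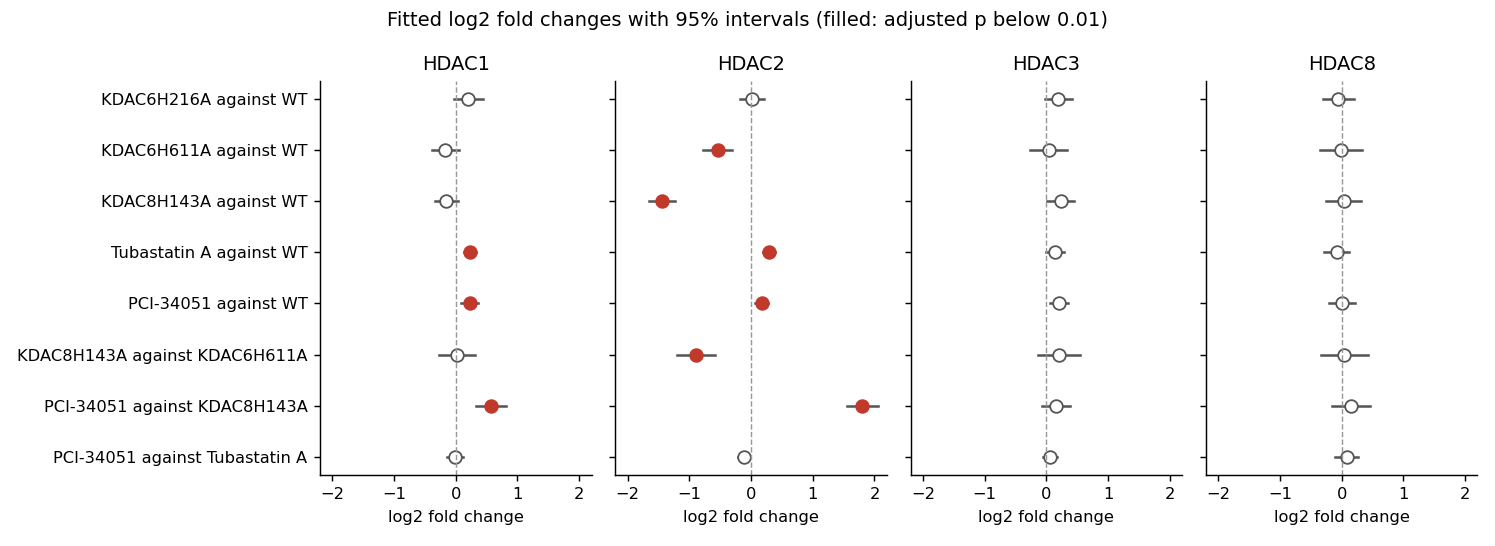
Fitted log2 fold changes of each member (horizontal axes) in the 8 comparisons (vertical axis) with 95% intervals as lines, filled where the adjusted p was below 0.01. HDAC2 has filled points in 6 of the 8 comparisons, HDAC1 in 3, and HDAC3 and HDAC8 in none.

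The partners of the class I enzymes were counted from a list of 39 genes, 38 of which were found in the table by symbol. It held subunits of the Sin3, NuRD, CoREST, MiDAC and NCoR and SMRT complexes, and also MIER1, MIER2 and MIER3. In KDAC8H143A, 11 rose and 11 fell of 37 tested, or 59.5% called, near the 58.5% of all genes, with a median log2 fold change of 0.02. Among those that rose were RCOR2 (1.93, adjusted p = 1.53e-03), a CoREST scaffold, SIN3B (1.76, adjusted p = 8.59e-06), a Sin3 scaffold, and MTA1 (1.51, adjusted p = 7.13e-06), a NuRD subunit. SAP18 (-1.28, adjusted p = 2.72e-05), BRMS1L (-0.86, adjusted p = 1.91e-03) and ING2 (-0.83, adjusted p = 2.27e-03), all known as partners of Sin3, fell. With the GC and length correction RCOR2 was at 0.95 (adjusted p = 0.0598), BRMS1L at 0.06 and ING2 at -0.08, none of them called, while SIN3B was at 0.88 and MTA1 at 0.62, both called. The number of falls was 7 in each of the fits without WT replicate 2, 3 or 4 or KDAC8H143A replicate 1, and with total count scaling 15 partners were higher and 3 lower.

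In KDAC6H611A, 0 partners rose and 2 of 36 fell, or 5.56% beside 12.3% of all genes. They were MBD2 (-1.28, adjusted p = 4.25e-06), a NuRD protein that binds methylated DNA, and SAP18 (-0.52, adjusted p = 8.92e-03). The call on SAP18 was lost with total count scaling (adjusted p = 0.177) and in 1 fit of all groups (0.0217). It was also lost in 6 of 8 fits that left out a library, all but those without KDAC6H611A replicate 2 or 3. MBD2 lies on chromosome 18 and SAP18 on chromosome 13. In KDAC6H611A the median log2 fold change was -0.76 over 230 tested genes of chromosome 18 and -0.43 over 260 of chromosome 13. Over all genes tested it was 0.03. The part of these chromosome medians in the 2 falls was not tested. In KDAC6H216A, 0 of 36 passed in edgeR's test, 4 had an unadjusted p under 0.05 and DESeq2 called 0. Without KDAC6H216A replicate 1, 5 partners were higher and 3 lower. With Tubastatin A 8 partners rose and 10 fell of 36, and with PCI-34051 6 rose and 11 fell of 36. These were 50% and 47.2% of the partners, beside 57.9% and 51.1% of all genes. TBL1XR1, a subunit of the HDAC3 complex, rose with both (0.52, adjusted p = 5.79e-09, and 0.54, adjusted p = 2.92e-07). MTA1 also rose with both (0.34, adjusted p = 1.18e-05, and 0.47, adjusted p = 8.17e-07), and SAP30L rose with Tubastatin A (0.43, adjusted p = 4.97e-05), as did RCOR3 with PCI-34051 (0.41, adjusted p = 1.70e-04). ING2 fell the most with both (-1.38, adjusted p = 1.40e-06, and -1.66, adjusted p = 1.20e-06), followed by DNTTIP1, the MiDAC subunit that binds HDAC1 and HDAC2 (-0.89, adjusted p = 1.97e-09, and -0.85, adjusted p = 2.18e-08), and BRMS1 (-0.78, adjusted p = 6.28e-07, and -0.71, adjusted p = 2.05e-05). Total count scaling turned these splits to 25 higher and 4 lower with Tubastatin A and 22 higher and 2 lower with PCI-34051.

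Cohesin, whose SMC3 subunit is the known substrate of KDAC8, was counted as 13 genes of the ring and its regulators. In KDAC8H143A 8 fell and 1 rose, or 69.2% beside 58.5% of all genes, with a median log2 fold change of -0.50 beside 0.08 for all genes tested. ESCO2 (-1.94, adjusted p = 2.31e-06), an acetyltransferase of SMC3, RAD21 (-1.40, adjusted p = 2.60e-06), the kleisin of the ring, and STAG2 (-1.07, adjusted p = 9.00e-06) fell the most. SMC3 fell too (-0.97, adjusted p = 3.75e-06), and its values under other settings are not given. MAU2 (0.80, adjusted p = 2.21e-05), a subunit of the cohesin loader, rose. With the GC and length correction 3 were lower and 3 higher, ESCO2 was at -1.22 (adjusted p = 3.52e-06), RAD21 was at -0.48 (adjusted p = 9.47e-04) and STAG2 (-0.13) and MAU2 (0.20) were no longer called. With total count scaling 5 were lower and 2 higher.

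In KDAC6H611A ESCO2 (-0.75, adjusted p = 1.39e-04) and SMC3 (-0.49, adjusted p = 6.18e-03) fell and 0 of 13 rose, so 15.4% passed beside 12.3% of all genes. SMC3 was no longer called with the GC and length correction (-0.35, adjusted p = 0.0280), with total count scaling (adjusted p = 0.211) and in 6 of 8 fits that left out a library, all but those without KDAC6H611A replicate 2 or 3, and total count scaling also ended the call on ESCO2 (adjusted p = 0.0133). In KDAC6H216A 0 of 13 passed in edgeR's test, 1 had an unadjusted p under 0.05 and DESeq2 called 0. Without KDAC6H216A replicate 1, 3 were higher. With Tubastatin A 4 fell and 1 rose, and with PCI-34051 4 fell and 1 rose. With either, 38.5% passed, beside 57.9% and 51.1% of all genes. CDCA5, which encodes the cohesin protector sororin, fell with both (-1.06, adjusted p = 4.69e-11, and -1.16, adjusted p = 6.08e-10), as did ESCO2 (-0.93, adjusted p = 6.34e-10, and -1.01, adjusted p = 2.87e-09) and SMC3 (-0.54, adjusted p = 8.12e-08, and -0.68, adjusted p = 1.20e-08). PDS5B, which regulates the ring on chromatin, rose with both (0.37, adjusted p = 9.88e-06, and 0.35, adjusted p = 2.29e-04), but was not called with the GC and length correction (0.14 and 0.16). The splits depended on scaling: total count scaling gave 8 higher and 3 lower with either inhibitor, and the GC and length correction gave 0 higher and 11 lower with Tubastatin A and 0 higher and 8 lower with PCI-34051.

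The other 7 metal-dependent deacetylase genes were counted to set the class beside its relatives. In KDAC8H143A 4 of 7 rose and 1 fell, or 71.4% beside 58.5% of all genes. HDAC10 (2.34, adjusted p = 1.92e-05), HDAC7 (1.45, adjusted p = 2.10e-06) and HDAC4 (1.23, adjusted p = 1.80e-05) rose the most, and HDAC11 (-1.12, adjusted p = 4.60e-03) fell. With the GC and length correction the rises were 0.82, 0.77 and 0.68, all called. HDAC11 was not called with total count scaling (-0.82, adjusted p = 0.0309) or without WT replicate 2, 3 or 4 or KDAC8H143A replicate 1 (adjusted p = 0.0158 to 0.0208). No class I gene rose there under the same test, where 5093 of all 16101 genes tested did. HDAC3 and HDAC8 rose in the alternative settings given above. HDAC9 (-0.93, adjusted p = 2.68e-05) was the 1 of 7 that fell in KDAC6H611A. HDAC4 rose with both inhibitors (1.01, adjusted p = 6.89e-10, and 1.06, adjusted p = 1.75e-09). HDAC7 (-0.41, adjusted p = 2.69e-07, and -0.26, adjusted p = 1.02e-03) and HDAC9 (-0.27, adjusted p = 4.08e-04, and -0.43, adjusted p = 1.62e-05) fell with both, but with total count scaling neither was called, HDAC9 with Tubastatin A being at 0.09 and HDAC7 with PCI-34051 at 0.13.

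**Figure D5:**
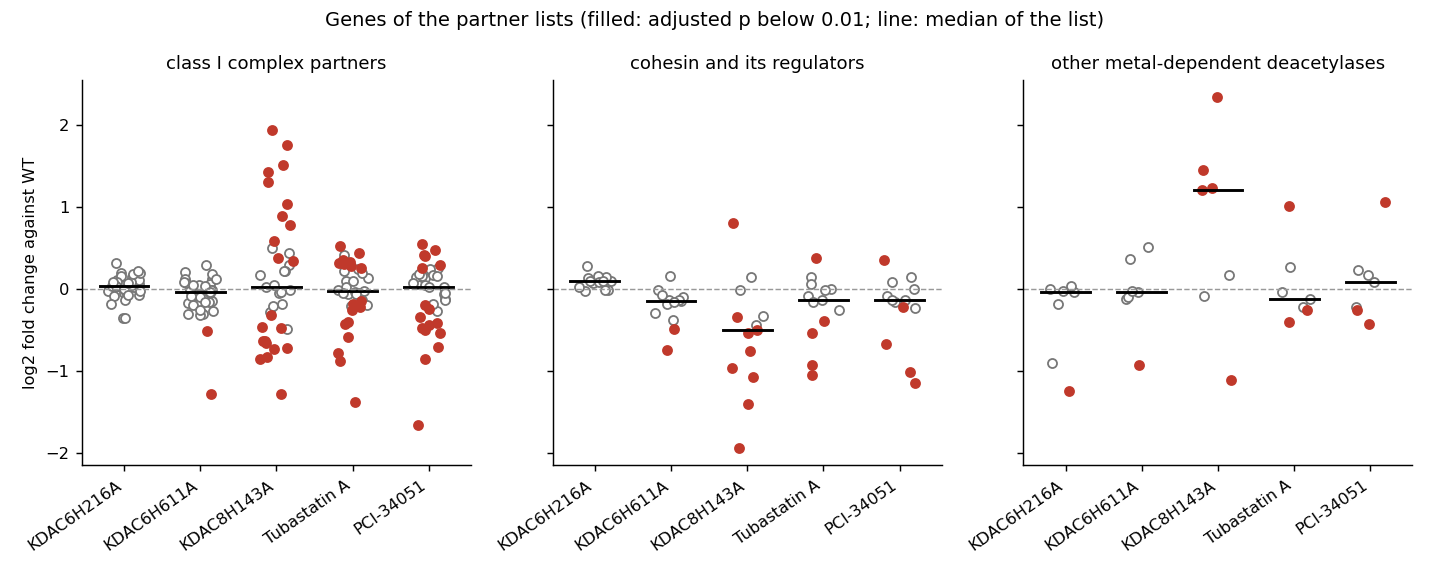
Log2 fold changes against WT (vertical axis) of the tested genes of 3 lists in the 5 comparisons with WT (horizontal axes), filled where the adjusted p was below 0.01, with the median of each list as a line. In KDAC8H143A the median of the cohesin list is -0.50 and that of the other deacetylases is 1.20, while the 11 rises and 11 falls among the complex partners lie on either side of a median of 0.02.

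The genes most like each member in log2 CPM over the 22 libraries were sought among 9291 protein-coding genes. Those most like HDAC2 were MYO6 (Pearson r = 0.99), a myosin gene that also lies on chromosome 6, MYO5A (0.99) on chromosome 15 and DARS (0.99), an aspartyl-tRNA synthetase gene on chromosome 2. With group means removed these fell to 0.82, 0.82 and 0.96, so DARS followed HDAC2 within groups as well. Those most like HDAC1 were GPR176 (0.96), YY1 (0.95) and JAK1 (0.95). HDAC3 was most like MTRR (0.82), ATP5SL (0.81) and YKT6 (0.79), and HDAC8 was most like OTULIN (0.77), R3HCC1L (0.74) and CHD9 (0.74). The correlations describe libraries that share groups, depth and composition, and no test was made of them.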

How the data were processed

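RNA was sequenced as paired ends after rRNA depletion. Per the labels and methods, the authors trimmed reads with Trimmomatic 0.39, aligned them to GRCh38 with Bowtie2 2.4.5 and deposited RSEM 1.3.3 expected counts per gene and library, not scaled for depth or length. The annotation release is not given in the sources used here. Of 60675 genes, 56558 matched GENCODE release 44 by identifier, which gave lengths and positions. All columns of values were used. The study describes the replicates as biological. Members were matched by symbol, groups came from the sample titles, and no 2 libraries agreed within sampling noise (chi-square per degree of freedom of at least 2.85 in 30 replicate pairs).

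Expected counts were rounded and fitted for each comparison with edgeR 4.0.16 in R 4.3.3 (TMM, filterByExpr, glmQLFit, glmQLFTest, Benjamini-Hochberg adjustment, threshold 0.01, as in the study, which used DESeq2 1.38.2). The SE was derived from the F statistic and the fold change. Alternatives were DESeq2 1.42.0, other scalings and filters, all 6 groups in one fit, protein-coding genes only, removal of mitochondrial rRNA and small RNAs, a smooth GC and length correction (mgcv 1.9.3), the replicate number as a block, a threshold of 0.05 and leaving out each library. Canonical lengths and pseudogene reads were added after the data were seen. The scripts were tested on simulated counts. Without simulated bias, 1.13% to 5.24% of the calls of the main edgeR fit were false. With a simulated GC bias, 97.5% to 98.3% were false, and 2.23% to 7.44% after the GC and length correction. The strength of that bias was set by hand and not measured in these libraries. Named genes were the members, HDAC6, SMC3 in KDAC8H143A, and up to 3 rises and 3 falls per list and comparison. Nearest neighbours, overlapping genes, pseudogenes and the 3 most similar genes with a mean of at least 10 CPM were also named. The members and lists were chosen with earlier results of these data known.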

Additional observations from a re-analysis of the deposited data

Results flagged for a closer look

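HDAC2 in KDAC6H611A replicate 2 was far from the other libraries of its line, at 51.1 CPM against 71.8 to 74.8, with a gap of 0.876 of the group's range. That was 1 of 16 groups tested in this way, and chance marks about 1 in 20. The fall of HDAC2 in this line held without that library. In 3 of 12 direct tests between groups that were each compared with WT, a member differed. Of all genes tested, 45.2% passed in KDAC8H143A against KDAC6H611A, 58.2% in PCI-34051 against KDAC8H143A and 5.65% in PCI-34051 against Tubastatin A. HDAC2 was lower in KDAC8H143A than in KDAC6H611A (log2 fold change -0.89, adjusted p = 2.43e-04 by edgeR's test, 4 of 4 libraries lower). HDAC1 and HDAC2 were higher with PCI-34051 than in KDAC8H143A (0.57, adjusted p = 8.86e-04, and 1.80, adjusted p = 1.14e-06, in 3 of 3 libraries). Other genes within 5 Mb of HDAC2 had median log2 fold changes of -1.29 and 1.46 in the same 2 fits.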

How the results depend on the processing

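Of the member values in 8 comparisons under other settings, 360 stayed on their side of the threshold (324 with the same sign, and 36 that changed sign and were called in neither case). With the sign kept, 16 lost the call and 11 gained it. Another 5 changed sign while losing or gaining the call, and none of these was called in both directions. With a library left out, 224 stayed (200 with the same sign, 24 uncalled with another sign), 11 lost the call and 1 gained it. The causes were not tested. WT libraries had as few as 62 counts of HDAC8, which limits its precision.

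With total count scaling, which moved the median of all genes to between 0.35 and 0.38 in KDAC8H143A and with either inhibitor, the log2 fold change of HDAC2 was -0.51 in KDAC6H611A and -0.65 in KDAC8H143A against KDAC6H611A, HDAC3 was called in KDAC8H143A (0.52) and after Tubastatin A (0.49) or PCI-34051 (0.59), and HDAC8 was at 0.38, HDAC7 at 0.13 (PCI-34051) and HDAC9 at 0.085 (Tubastatin A). With the GC and length correction, HDAC2 was at -0.40 in KDAC6H611A, 0.07 with Tubastatin A, -0.0024 with PCI-34051 and -0.25 in KDAC8H143A against KDAC6H611A, with no call. HDAC3 was then at 0.22 with Tubastatin A and 0.27 with PCI-34051, both called. HDAC8 was at 0.66 in KDAC8H143A and -0.63 in PCI-34051 against KDAC8H143A, both called, and BRMS1L was at 0.059. Adding the replicate block to that correction gave -0.41, 0.070, -0.00062 and -0.25 for HDAC2 and 0.062 for BRMS1L, none called. It gave 0.28 for HDAC3 with PCI-34051 and 0.66 and -0.63 for HDAC8, all called.

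In 1 fit of all 6 groups, HDAC1 was at 0.35 and 0.33 and HDAC2 at 0.41 and 0.28 with Tubastatin A and PCI-34051, none called. Without the filter, HDAC3 was at 0.24 and 0.29 there, called with both. With protein-coding genes, HDAC2 was at 0.15 with PCI-34051 and HDAC1 at 0.34 in PCI-34051 against KDAC8H143A (0.36 with upper-quartile scaling), with no call. At a threshold of 0.05, HDAC3 passed with PCI-34051 (0.20). The replicate block alone put HDAC2 with PCI-34051 at 0.16 (adjusted p = 0.0314), HDAC6 in KDAC6H216A at -1.25 (adjusted p = 0.0192) and SAP18 in KDAC6H611A at -0.53 (adjusted p = 0.0122). Deviations from the group means in libraries of the same number correlated at -0.32 to 0.44 over 10174 genes, and in no comparison were all such correlations over 0.1 or was every library closest to its own number, so the numbers were not treated as pairs.

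The median log2 fold change of the genes near HDAC2 in KDAC8H143A was -1.004 with total count scaling, -0.97 without the filter, -0.68 with the GC and length correction and -0.68 with the replicate block added to it, and -1.49 to -1.24 with a library left out. With a library left out, HDAC1 ranged from 0.12 to 0.30 in KDAC6H216A and from 0.14 to 0.28 with PCI-34051, and HDAC2 from -0.59 to -0.46 in KDAC6H611A and from 0.16 to 0.20 with PCI-34051.

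The WT level per kb was 31.8 (longest transcript), 36.1 (canonical transcript) and 17.4 CPM (total count scaling) for HDAC1, in the same order 10.3, 10.3 and 5.89 for HDAC2, 13.7, 13.8 and 5.21 for HDAC3 and 2.24, 7.27 and 0.502 for HDAC8. The shares with the longest and the canonical transcript were 54.8% and 53.5% for HDAC1, 17.8% and 15.3% for HDAC2, 23.6% and 20.5% for HDAC3 and 3.86% and 10.8% for HDAC8.

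Counts of called genes that moved by over 1.5 times were, for KDAC6H216A (121), 293 with DESeq2, 443 with total count scaling, 215 in 1 fit of all groups, 66 with the block, 61 with block and correction and 351 at the threshold of 0.05. For KDAC6H611A (1814) they were 913 with total count scaling and 3383 at 0.05. In 1 fit of all groups, Tubastatin A went from 8821 to 4607, PCI-34051 from 7835 to 4341 and PCI-34051 against Tubastatin A from 1041 to 7 (1884 without the filter, 2463 at 0.05). KDAC8H143A against KDAC6H611A went from 7519 to 4792 with block and correction.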
